A study of Homo sapiens with 8 samples.

Results

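The genes described here are 9 components of TGF-beta signalling: the ligands TGFB1, TGFB2 and TGFB3, the receptors TGFBR1, TGFBR2 and TGFBR3, the signal transducer SMAD3, its inhibitor SMAD7, and TGFBI, a matrix protein named for its induction by TGF-beta. They were chosen by symbol and found through their Ensembl identifiers, 9 genes of the 37441 in the table. All 9 passed the filter of at least 10 counts summed over the libraries, which left 18203 genes for testing. RNA came from NCI-H1581 and NCI-H1703, human non-small cell lung cancer lines that are sensitive to the FGFR inhibitor CPL304110, and from a resistant variant of each, NCI-H1581R and NCI-H1703R. The resistant variants had been selected in CPL304110 from 50 nM up to 2.5 µM for NCI-H1581R and 5 µM for NCI-H1703R over 4 to 6 months, and the sensitive variants had not. NCI-H1581 and NCI-H1581R grew in DMEM/F12 and NCI-H1703 and NCI-H1703R in RPMI 1640, so that line and medium cannot be told apart, and both media held serum and antibiotics. Cells were harvested 24 h after a change to fresh medium, and whether that medium held the inhibitor was not stated. Each variant gave 2 replicates, 8 libraries of 33800389 to 40031710 counts. The resistant variant of each line is a single selected population, and the replicates are repeats of the culture and harvest, so p-values measure the spread between these repeats and not between independent selections.

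TGF-beta ligands are secreted in a latent form bound to matrix proteins and, once released, bind TGFBR2, which recruits and phosphorylates TGFBR1. TGFBR1 phosphorylates SMAD2 and SMAD3, which enter the nucleus with SMAD4 and switch on target genes, among them SMAD7, which feeds back on the receptor. TGFBR3, or betaglycan, is a co-receptor that presents ligand, TGFB2 above all. In lung epithelium TGF-beta is known for growth arrest and, in cancer cells, for epithelial-mesenchymal transition.

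In NCI-H1581R, TGFB1, TGFB2, TGFBR2 and SMAD3 fell and SMAD7 rose, 5 of 9 genes called, where 15.1% of all genes tested were called (7.63% higher and 7.44% lower). In NCI-H1703R, TGFB1, TGFBR2 and SMAD7 fell and SMAD3 rose, 4 of 9 genes called, against 14.7% of all genes (7.06% higher and 7.67% lower). A gene was called when its p from edgeR's quasi-likelihood test, adjusted by the Benjamini-Hochberg method over all 18203 genes, was under 0.1. These 4 genes were called in both lines, as were 3.38% of all genes. TGFB1 and TGFBR2 were called lower in both, as were 0.95% of all genes, and SMAD3 and SMAD7 were called in both lines in opposite directions, as were 1.74% of all genes. In its analyses of p38 signalling, the study picked a panel of genes on these same libraries for a shared direction in both lines. It reports members of the TGF-beta pathway in that panel, and its text does not state whether TGFB1 or TGFBR2 is among them. The common fall of TGFB1 and TGFBR2 comes from the same libraries and is not independent evidence of their direction. TGFB3, TGFBR1, TGFBR3 and TGFBI were called in neither line. The median log2 fold change of the 9 genes was -0.62 in NCI-H1581R and -0.26 in NCI-H1703R, beside 0.04 and 0.0 over all genes tested. The replicates of the resistant and the sensitive variant did not overlap for 8 of 9 genes in NCI-H1581 and 6 of 9 in NCI-H1703, beside 50.6% and 51.3% of all genes. In NCI-H1703R, a fit that blocked on replicate number called TGFBR1 as well, and 34.9% of all genes.

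**Figure D1:**
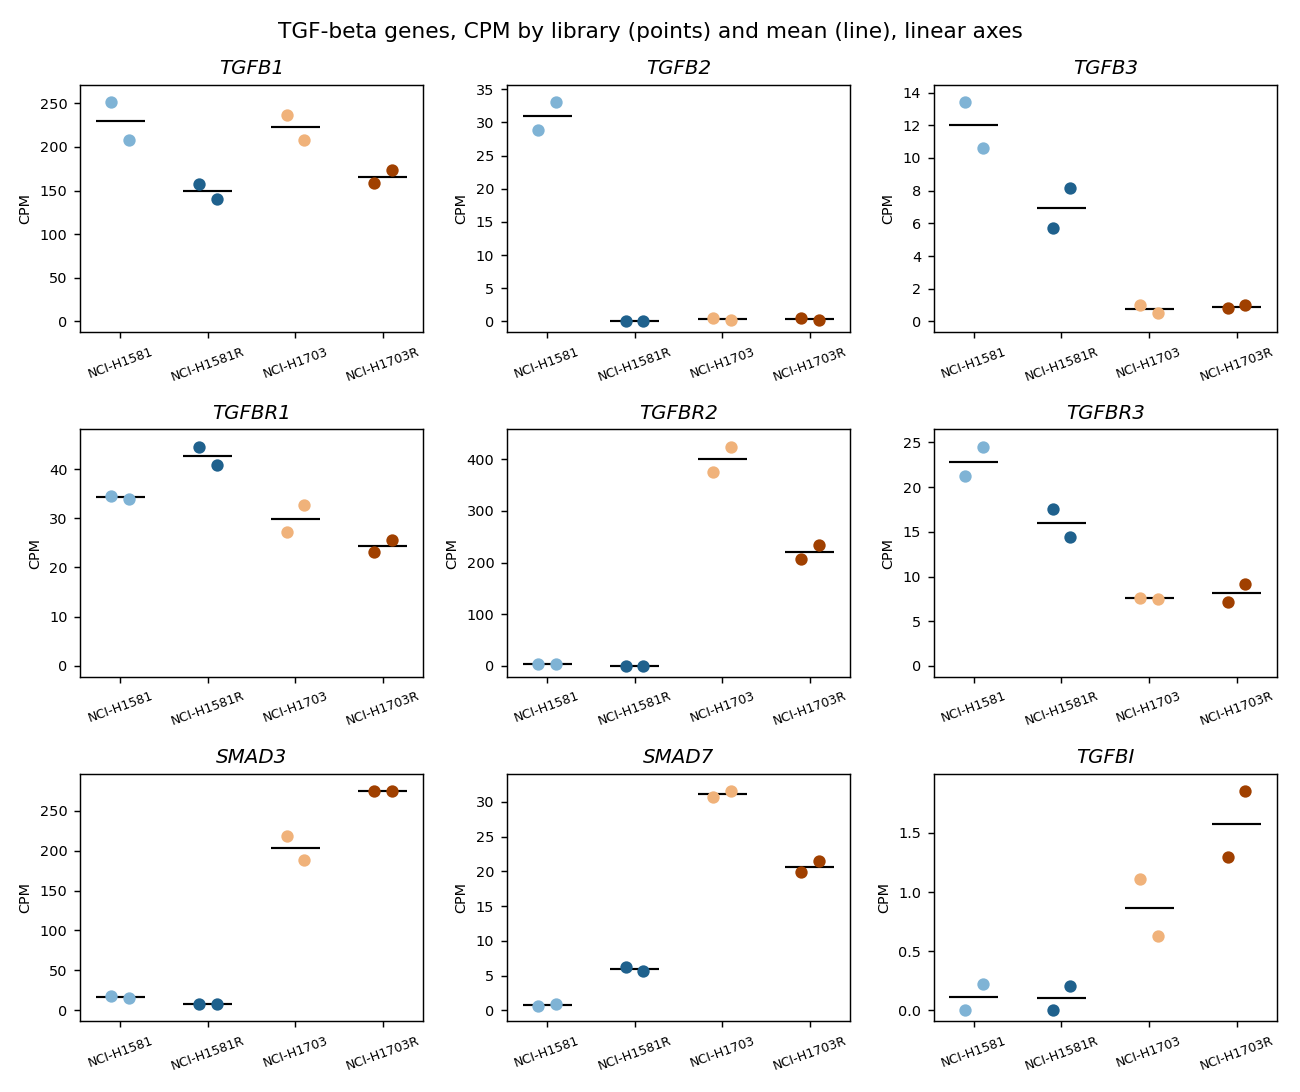
Level of each of the 9 genes in CPM on linear axes, with 1 point for each library and a line at the mean of the 2 replicates of each variant. TGFB1 and TGFBR2 lie lower in both resistant variants, SMAD3 and SMAD7 move in opposite directions in the 2 lines, and TGFB2 is seen at over 1 CPM only in NCI-H1581.

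TGFB1 encodes the most widely expressed TGF-beta ligand and lies at chr19:41301587-41353922 on the minus strand (GRCh38). Its level in CPM, counts scaled to the library size with TMM factors, was 251 and 208 in NCI-H1581 and 158 and 140 in NCI-H1581R. In NCI-H1703 it was 237 and 208, and in NCI-H1703R 159 and 173. In both lines the resistant replicates lay below both sensitive replicates, and the sensitive variants of the lines overlapped each other. The log2 fold change was -0.62 ± 0.17 (SE, n = 2 per variant) in NCI-H1581R, a 1.53-fold fall with an adjusted p of 0.08 by edgeR's quasi-likelihood test. In NCI-H1703R it was -0.39 ± 0.10, a 1.31-fold fall with an adjusted p of 0.0716. Of the calls within a line, these had the highest adjusted p among the 9 genes. With offsets for GC content and transcript length both were lost (adjusted p = 0.328 and 0.394 by edgeR), and in NCI-H1703R the call was also lost with no filter on low counts (0.123) and in a single fit of all libraries (0.149). TGFB1 shares 215 of its 3264 exonic bases with HNRNPUL1 on the opposite strand, and the strandedness of the libraries was not given. In bulk RNA of this kind, fewer cells with a transcript and less of it per cell cannot be told apart.

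TGFB2, a ligand that depends on TGFBR3 for binding its receptor, lies at chr1:218345336-218444619 on the plus strand. It gave 970 and 1320 counts in NCI-H1581 and 0 and 1 counts in NCI-H1581R. In NCI-H1703 it gave 21 and 9 counts, and in NCI-H1703R 18 and 6. The transcript was thus near 0 in every variant except NCI-H1581, and in NCI-H1703 the variants overlapped. Against a floor of 3 counts per library, TGFB2 was at least 396-fold lower in NCI-H1581R than in NCI-H1581 (adjusted p = 0.000102 by edgeR's quasi-likelihood test). In NCI-H1703R its log2 fold change was -0.39 ± 0.75, with an adjusted p of 0.823. Of its 6050 exonic bases, 2072 are shared with the non-coding genes TGFB2-AS1 and TGFB2-OT1.

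TGFB3, the third ligand, lies at chr14:75958097-75983011 on the minus strand. Its level was 13.4 and 10.6 CPM in NCI-H1581 and 5.71 and 8.18 CPM in NCI-H1581R. In NCI-H1703 it was 1.0 and 0.538 CPM, from 37 and 18 counts, and in NCI-H1703R 0.793 and 1.0 CPM. The NCI-H1581R replicates lay below those of NCI-H1581 without a call, whereas the NCI-H1703 variants overlapped. The log2 fold change was -0.77 ± 0.27 in NCI-H1581R (edgeR adjusted p = 0.145) and 0.23 ± 0.49 in NCI-H1703R (0.841). In NCI-H1581R, TGFB3 was called lower in a single fit of all libraries (0.0652) and with the GC and length offsets (0.0761).

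TGFBR2, the receptor that binds the ligand first, lies at chr3:30606601-30694142 on the plus strand and differed more between the sensitive lines than any other of the 9 genes. Its level was 3.5 and 3.05 CPM in NCI-H1581, from 118 and 122 counts, and 0.558 and 0.584 CPM in NCI-H1581R, from 21 and 23 counts. In NCI-H1703 it was 376 and 424 CPM, and in NCI-H1703R 207 and 234 CPM. The variants did not overlap in either line, and even the lower NCI-H1703R library stood far above every NCI-H1581 library. TGFBR2 fell by 2.50 ± 0.43 on the log2 scale in NCI-H1581R, 5.64-fold, with an adjusted p of 0.0155 by edgeR. In NCI-H1703R it fell by 0.83 ± 0.12, 1.78-fold, with an adjusted p of 0.0132. No other gene shares its exons.

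TGFBR1, the kinase receptor that acts on the SMADs, lies at chr9:99104038-99154192 on the plus strand and lay between 23.2 and 44.5 CPM in all libraries. It was at 34.6 and 33.9 CPM in NCI-H1581, 44.5 and 40.8 CPM in NCI-H1581R, 27.2 and 32.6 CPM in NCI-H1703 and 23.2 and 25.5 CPM in NCI-H1703R. The resistant replicates lay above the sensitive ones in NCI-H1581 and below them in NCI-H1703. Neither difference passed the test, with log2 fold changes of 0.33 ± 0.16 (edgeR adjusted p = 0.289) and -0.26 ± 0.14 (0.308). The NCI-H1703R value was called in the fit that blocked on replicate number, at an adjusted p of 0.0657.

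TGFBR3, the co-receptor betaglycan, lies at chr1:91680343-91906335 on the minus strand. Its level was 21.2 and 24.5 CPM in NCI-H1581 and 17.5 and 14.4 CPM in NCI-H1581R. In NCI-H1703 it was 7.65 and 7.51 CPM, and in NCI-H1703R 7.19 and 9.16 CPM. It lay lower in both NCI-H1581R libraries, with overlap between the NCI-H1703 variants. The log2 fold change of -0.51 ± 0.21 in NCI-H1581R did not pass the test (edgeR adjusted p = 0.192), nor did that of 0.14 ± 0.18 in NCI-H1703R (0.712). TGFBR3 was called in NCI-H1581R in the single fit of all libraries (0.0789).

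Of the 9 genes, TGFB1 and TGFBR2 were called lower in both lines. The 250 bases before their start sites are shown for that reason, taken from RefSeq (GRCh38.p14) next to the start of the canonical GENCODE transcript, and read 5′ to 3′ on the gene's strand, with capitals on the GC box GGGCGG or its reverse complement CCGCCC. The TGFB1 window is chr19:41353923-41354172 and the TGFBR2 window chr3:30606351-30606600. The TGFB1 window held 6 GC boxes and the TGFBR2 window 2, and 42.6% of 35116 such windows held at least 1. A further TGFBR2 start site in RefSeq, with the window chr3:30606106-30606355, had 0 GC boxes. GC boxes were not particular to the genes called lower in both lines. Windows of TGFBR1 held up to 6 and those of SMAD3 up to 4, and the TGFBI window held 3 and the TGFBR3 window 2. The windows of TGFB2, TGFB3 and SMAD7 held 0.
TGFB1: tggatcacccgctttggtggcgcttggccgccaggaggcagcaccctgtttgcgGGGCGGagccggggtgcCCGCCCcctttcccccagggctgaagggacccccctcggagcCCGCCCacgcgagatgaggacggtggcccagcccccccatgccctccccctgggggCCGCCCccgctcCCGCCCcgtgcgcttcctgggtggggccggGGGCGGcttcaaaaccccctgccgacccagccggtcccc
TGFBR2: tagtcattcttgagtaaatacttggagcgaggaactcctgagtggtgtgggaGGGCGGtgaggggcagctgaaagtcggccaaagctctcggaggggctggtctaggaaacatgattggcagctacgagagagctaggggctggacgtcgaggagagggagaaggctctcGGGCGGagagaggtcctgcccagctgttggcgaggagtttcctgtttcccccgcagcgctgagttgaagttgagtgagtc

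SMAD3, which carries the signal from TGFBR1 to the genome, lies at chr15:67063763-67195173 on the plus strand. Its level was 18 and 15.8 CPM in NCI-H1581 and 7.73 and 8.56 CPM in NCI-H1581R. In NCI-H1703 it was 218 and 188 CPM, and in NCI-H1703R 274 and 274 CPM. SMAD3 was thus lower in both NCI-H1581R libraries and higher in both NCI-H1703R libraries than in any replicate of the sensitive variant. It fell by 1.04 ± 0.21 on the log2 scale in NCI-H1581R, 2.05-fold, with an adjusted p of 0.0284 by edgeR. In NCI-H1703R it rose by 0.47 ± 0.10, 1.38-fold, with an adjusted p of 0.0434.

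SMAD7, the inhibitory SMAD that blocks TGFBR1 and is itself a TGF-beta target, lies at chr18:48919853-48950965 on the minus strand. Its level was 0.683 and 0.949 CPM in NCI-H1581, from 23 and 38 counts, and 6.19 and 5.66 CPM in NCI-H1581R, from 233 and 223 counts. In NCI-H1703 it was 30.7 and 31.5 CPM, and in NCI-H1703R 19.9 and 21.5 CPM. SMAD7 moved the other way from SMAD3 in each line, with no overlap between variants, and its level in NCI-H1581R remained below that of every NCI-H1703 and NCI-H1703R library. It rose by 2.85 ± 0.37 on the log2 scale in NCI-H1581R, 7.2-fold, with an adjusted p of 0.00513 by edgeR. In NCI-H1703R it fell by 0.56 ± 0.11, 1.47-fold, with an adjusted p of 0.0333. The fall in NCI-H1703R was not called with the GC and length offsets (adjusted p = 0.157).

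SKIL, which encodes the SMAD co-repressor SnoN and is, like SMAD7, a feedback target of the pathway, was measured as a gene of the wider pathway lists. It rose in NCI-H1581R, from 3.12 and 4.22 CPM to 12.9 and 16.7 CPM (log2 fold change 2.01, edgeR adjusted p = 0.00711). It fell in NCI-H1703R, from 45.6 and 44 CPM to 32.5 and 31.9 CPM (-0.45, 0.042). PMEPA1, a further target that restrains SMAD signalling, fell in NCI-H1581R (log2 fold change -1.89, edgeR adjusted p = 0.0157) and in NCI-H1703R (-1.47, 0.00393). Unlike PMEPA1, SMAD7 and SKIL rose in NCI-H1581R, and they fell in NCI-H1703R. Their windows of 250 bases before the start are shown with capitals on CAGAC or its reverse complement GTCTG, letters of the CAGA box that SMAD3 binds, at chr18:48950966-48951215 for SMAD7 and chr3:170357465-170357714 for SKIL. The SMAD7 window held 2 matches and the SKIL window 1, and 38.0% of all windows held at least 1. The windows of the other SMAD7 start sites in RefSeq held 1 and 0. These letters were not particular to SMAD7 and SKIL. The TGFB2 window held 2 matches, windows of TGFB3 and TGFBR1 up to 2 and those of SMAD3 up to 3. Windows of PMEPA1, which fell in both lines, held up to 1. The windows of TGFB1, TGFBR2, TGFBR3 and TGFBI held 0. The palindrome GTCTAGAC was found in no window of the 9 genes, and in 0.182% of all windows. The AP-1 site TGANTCA was found in 1 window of SMAD3, before a downstream start site, and in 6.57% of all windows. A match of these letters is a description of the sequence and no evidence of binding.
SMAD7: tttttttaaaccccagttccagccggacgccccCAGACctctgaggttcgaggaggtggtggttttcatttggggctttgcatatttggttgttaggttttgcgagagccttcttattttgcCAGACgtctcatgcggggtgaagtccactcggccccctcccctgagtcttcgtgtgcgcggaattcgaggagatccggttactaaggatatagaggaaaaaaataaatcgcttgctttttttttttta
SKIL: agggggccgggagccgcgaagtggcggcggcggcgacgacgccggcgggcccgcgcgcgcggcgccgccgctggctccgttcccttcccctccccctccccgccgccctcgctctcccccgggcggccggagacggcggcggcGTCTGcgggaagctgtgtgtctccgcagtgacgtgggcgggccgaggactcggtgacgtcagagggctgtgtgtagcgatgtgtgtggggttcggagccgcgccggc

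TGFBI, an adhesion protein of the extracellular matrix, lies at chr5:136028988-136063818 on the plus strand. It gave 0 and 9 counts in NCI-H1581 and 0 and 8 counts in NCI-H1581R. In NCI-H1703 it gave 41 and 21 counts, and in NCI-H1703R 49 and 70. The counts were close to the floor in both NCI-H1581 variants, and in NCI-H1703R both libraries lay above those of NCI-H1703 without a call. The log2 fold change was 0.87 ± 0.45 in NCI-H1703R (edgeR adjusted p = 0.306) and -0.21 ± 1.62 in NCI-H1581R (0.974), where a difference was not detectable at this depth.

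The change with resistance differed between the lines for 5 of 9 genes in the interaction test, against 15.4% of all genes (6.93% higher and 8.47% lower in NCI-H1703). The difference, NCI-H1703 minus NCI-H1581, was -3.43 ± 0.29 on the log2 scale for SMAD7 (edgeR adjusted p = 0.000238) and 1.48 ± 0.20 for SMAD3 (0.00245). TGFBR2 fell more in NCI-H1581R than in NCI-H1703R, by 1.64 ± 0.32 (0.015). For TGFB2 the adjusted p was 0.0027. For TGFB1, called lower in both lines, the difference of 0.21 had an adjusted p of 0.625, which does not show that the falls were equal. TGFBR1 was called with -0.61 ± 0.20 (0.0931), since it lay higher in NCI-H1581R and lower in NCI-H1703R. That call was lost in the blocked fit (0.127) and with the GC and length offsets (0.668).

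**Figure D2:**
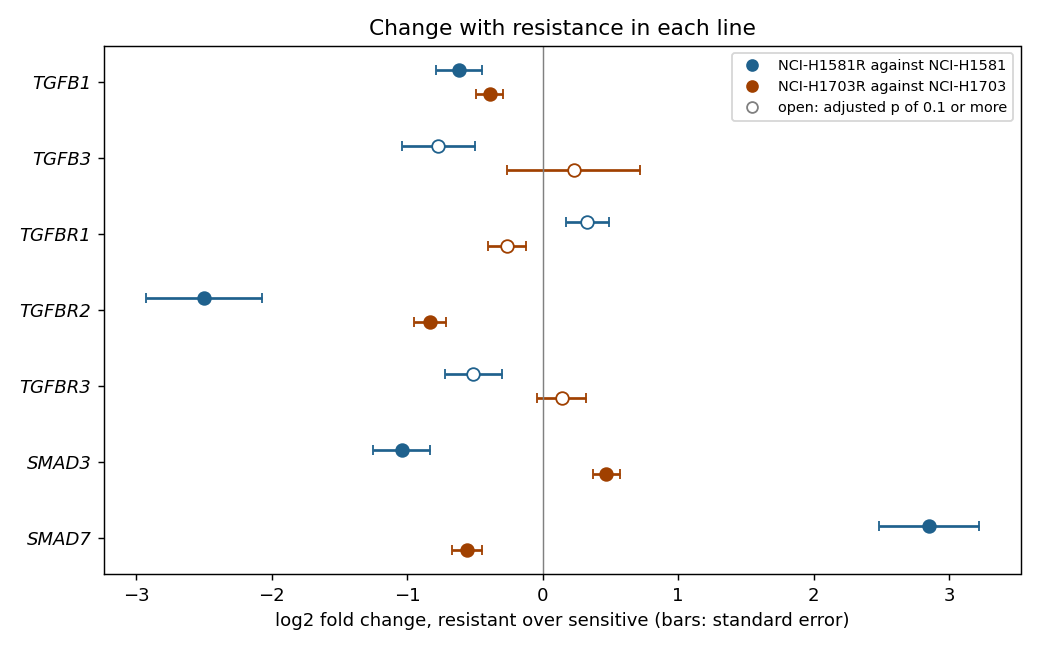
Log2 fold change, resistant over sensitive, of 7 of the 9 genes in each line, with bars for the standard error of the edgeR estimate (n = 2 per variant). Filled points passed the test; TGFB1 and TGFBR2 lie below 0 in both lines and SMAD3 and SMAD7 on opposite sides of 0, while TGFB2 and TGFBI, with libraries at 0 counts, are not drawn.

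When a single library was left out, which leaves 1 library in a variant, edgeR called 3 to 6 of the 9 genes in NCI-H1581R and 0 to 2 in NCI-H1703R. TGFB1 and SMAD3 lost their call in NCI-H1581R without either NCI-H1581 replicate. In NCI-H1703R none of the 9 genes was called without NCI-H1703 replicate 1 or without NCI-H1703 replicate 2, where the genes called overall dropped to 293 and 274. Only TGFBR2 was called without NCI-H1703R replicate 1, and TGFBR2 and SMAD7 without NCI-H1703R replicate 2. The direction of each gene called in a line was the same in all of these fits.

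The sensitive lines themselves differed in 7 of 9 genes, where 62.9% of all genes were called (32.5% higher and 30.4% lower in NCI-H1703). TGFBR2 was 123-fold higher in NCI-H1703 than in NCI-H1581 (log2 difference 6.94 ± 0.16, edgeR adjusted p = 9.56e-08). SMAD7 was 37.4-fold higher (5.23 ± 0.23, 1.47e-06) and SMAD3 12-fold higher (3.59 ± 0.12, 5.11e-07), so that the binding receptor and both SMADs were higher in NCI-H1703. The ligands TGFB2 and TGFB3 went the other way: TGFB2 was 72.2-fold lower in NCI-H1703 (-6.17 ± 0.29, 2.3e-06) and TGFB3 15.2-fold lower (-3.93 ± 0.33, 4.4e-05). TGFBR3 was 3.03-fold lower in NCI-H1703 (-1.60 ± 0.17, 0.000139), and TGFBI was called higher from few counts (2.81 ± 0.94, 0.0344), a call lost without NCI-H1581 replicate 1 (0.102) or NCI-H1703 replicate 1 (0.164). TGFBR1 (-0.20 ± 0.14, 0.256) and TGFB1 (-0.05 ± 0.11, 0.756) were not called. With the GC and length offsets TGFB1 was instead called higher in NCI-H1703 (0.52, 0.00562), so its order between the lines depends on that correction.

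Levels were compared between genes per length, in TPM, counts divided by the length of the canonical GENCODE transcript and scaled to the library. In NCI-H1581, TGFB1 stood first at 164 ± 10.6 TPM (SD, n = 2), followed by TGFB2 and TGFBR1, both at 10.5 TPM with overlapping replicates. TGFBR3 at 7.23 and TGFB3 at 6.94 TPM overlapped too, then came SMAD3 at 5.21, TGFBR2 at 1.44, SMAD7 at 0.492 and TGFBI at 0.0868 TPM. In NCI-H1703, TGFBR2 and TGFB1 stood first with overlapping replicates, and SMAD3, SMAD7, TGFBR1 and TGFBR3 followed without overlap. In NCI-H1703R the order was TGFB1, TGFBR2, SMAD3, SMAD7, TGFBR1, TGFBR3, TGFBI, TGFB3 and TGFB2. In NCI-H1581R, TGFB1 stood first at 118 ± 9.8 TPM and TGFB2 last, and TGFBR1 at 14.5 ± 1.57 TPM was second. TGFB1 was thus the leading ligand in all 4 variants. In NCI-H1581 and NCI-H1581R, TGFBR1 stood above TGFBR2, and in NCI-H1703 and NCI-H1703R TGFBR2 stood above TGFBR1.

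**Figure D3:**
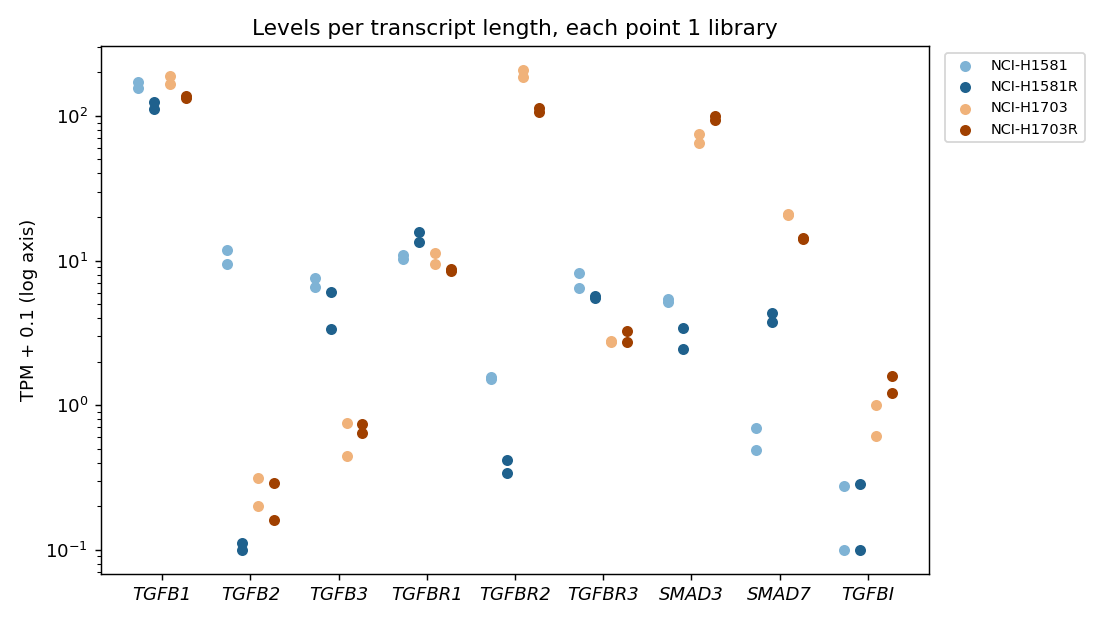
Level of each of the 9 genes in TPM plus 0.1 on a log axis, with 1 point for each library, coloured by variant. TGFB1 is high in all 4 variants, TGFBR2, SMAD3 and SMAD7 lie higher in NCI-H1703 and NCI-H1703R than in NCI-H1581 and NCI-H1581R, and TGFB2 lies near 10.5 TPM in NCI-H1581 alone.

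The other genes of the pathway were taken from 5 lists of 54 genes in all, of which INHBA and NODAL did not pass the filter. Of the 52 tested, 10 rose and 8 fell in NCI-H1581R, where 7.63% of all genes rose and 7.44% fell, and 6 rose and 14 fell in NCI-H1703R, where 7.06% of all genes rose and 7.67% fell. With the replicate block, 24 fell in NCI-H1703R and 7 rose, where 34.9% of all genes were called. Their median log2 fold change was -0.04 and -0.13, beside 0.04 and 0.0 over all genes tested. LTBP2, PMEPA1, SKIL and THBS1 stand in more than 1 list.

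Of 11 genes that hold TGF-beta latent or release it, 2 rose and 2 fell in NCI-H1581R, and 1 rose and 3 fell in NCI-H1703R, beside 15.1% and 14.7% of all genes called in either direction. The replicate block called 1 higher and 4 lower in NCI-H1703R, where it called 34.9% of all genes. LTBP1, a matrix protein that binds latent TGF-beta, went from 1.04 and 0.474 CPM in NCI-H1581 to 37.0 and 36.6 CPM in NCI-H1581R (log2 fold change 5.65, edgeR adjusted p = 0.000172). In NCI-H1703R it fell, from 13.4 and 17.6 CPM to 7.48 and 7.52 CPM (-1.01, 0.0331). LTBP3, of the same family, went the other way in NCI-H1581R, from 69.7 and 63.9 CPM to 9.01 and 8.26 CPM (-2.94, 0.000243), and was not called in NCI-H1703R (-0.12, 0.656). Latent TGF-beta binding proteins thus moved in both directions within NCI-H1581R. THBS1, thrombospondin 1, which activates latent TGF-beta, rose in NCI-H1581R (1.78, 0.0503) and fell in NCI-H1703R (-3.09, 0.04). Its NCI-H1703R replicates lay far apart, at 0.185 and 2.74 CPM, its log2 fold change ranged from -6.05 to -2.18 with 1 library left out, and it was called there in 6 of 7 alternatives. ITGAV, the integrin chain that binds latent TGF-beta, rose in NCI-H1703R (0.69, 0.0328).

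Among 9 tested genes of the activin branch, 1 rose and 0 fell in NCI-H1581R, and 1 rose and 1 fell in NCI-H1703R, counts near the 15.1% and 14.7% called over all genes. In NCI-H1703R, 2 rose and 3 fell with the replicate block, where 34.9% of all genes were called. ACVR2B, an activin receptor, rose from 18.3 and 18.7 CPM to 36.2 and 43.5 CPM in NCI-H1581R (log2 fold change 1.12, edgeR adjusted p = 0.0141). It fell in NCI-H1703R, from 4.05 and 3.68 CPM to 1.77 and 2.01 CPM (-1.0, 0.0773), a call kept in 7 of 8 alternatives. GDF11, a ligand of this branch, rose in NCI-H1703R (0.38, 0.0932), a call kept in 4 of 8 alternatives. Of 10 co-receptors and receptor regulators, 2 rose and 2 fell in NCI-H1581R, and 1 rose and 2 fell in NCI-H1703R, again beside 15.1% and 14.7% of all genes. With the replicate block, 1 rose and 4 fell in NCI-H1703R, beside 34.9% of all genes. ENG, endoglin, a co-receptor, fell from 30.4 and 27.6 CPM to 1.38 and 1.45 CPM in NCI-H1581R (-4.34, 0.00018). ZFYVE9, the anchor that brings SMADs to the receptor, rose there (1.07, 0.013). PMEPA1, a target that restrains SMAD signalling, fell in both lines, from 5.76 and 6.54 CPM to 1.43 and 1.85 CPM in NCI-H1581R (-1.89, 0.0157) and from 29.1 and 31.1 CPM to 9.62 and 11.7 CPM in NCI-H1703R (-1.47, 0.00393). FKBP1A, which binds TGFBR1, fell in NCI-H1703R (-0.47, 0.0734), a call kept in 5 of 8 alternatives.

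Of 10 SMADs and nuclear partners, 3 rose and 0 fell in NCI-H1581R, and 0 rose and 3 fell in NCI-H1703R, beside 7.63% of all genes that rose in NCI-H1581R and 7.67% that fell in NCI-H1703R. In NCI-H1581R the genes that rose were SKIL, the phosphatase gene PPM1A (log2 fold change 0.62, edgeR adjusted p = 0.0853) and the co-repressor gene TGIF1 (0.62, 0.0613), each of which restrains SMAD activity. PPM1A and TGIF1 were each called in 7 of 8 alternatives. In NCI-H1703R the genes that fell were SKIL, its relative SKI (-0.43, 0.0331) and the co-activator gene CREBBP (-0.41, 0.0495). SMAD2 and SMAD4 were called in neither line. With the replicate block, 6 of the 10 genes fell and 0 rose in NCI-H1703R, where 34.9% of all genes were called in either direction. SMAD2 (edgeR adjusted p = 0.0213) and SMAD4 (0.037) were among the 6.

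Of 16 transcriptional targets, 4 rose and 5 fell in NCI-H1581R, and 3 rose and 9 fell in NCI-H1703R, beside 15.1% and 14.7% of all genes called. The replicate block called 3 higher and 11 lower in NCI-H1703R, where it called 34.9% of all genes. FN1, fibronectin, went from 21 and 57 counts in NCI-H1581 to 28023 and 36165 counts in NCI-H1581R (log2 fold change 9.63, edgeR adjusted p = 4.93e-05). COL1A1, the collagen I chain, fell in NCI-H1581R, from 61.3 and 57.0 CPM to 22.1 and 32.9 CPM (-1.09, 0.031). It rose in NCI-H1703R, from 1.05 and 0.897 CPM to 26.4 and 21.8 CPM (4.65, 0.000743). FN1 fell in NCI-H1703R (-0.74, 0.0591), a call kept in 6 of 8 alternatives, so these matrix targets moved in opposite directions within each line. In NCI-H1703R, TGM2, transglutaminase 2, fell from 374 and 350 CPM to 12.1 and 20.6 CPM (-4.44, 0.000804). IGFBP3, a secreted binder of insulin-like growth factors, fell there from 492 and 682 CPM to 40.8 and 63.6 CPM (-3.47, 0.00207). The sensitive lines differed in 14 of these 16 targets, 12 of them higher in NCI-H1703, beside 62.9% of all genes called and 32.5% called higher.

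**Figure D4:**
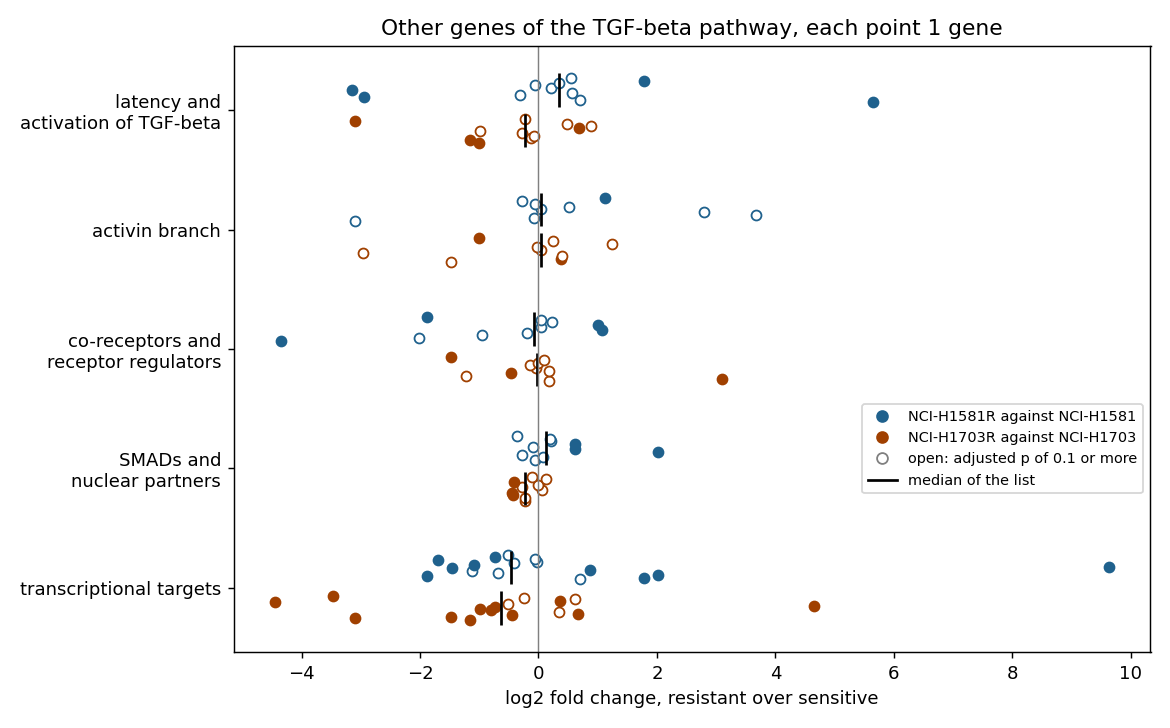
Log2 fold change, resistant over sensitive, of the other tested pathway genes by list, with 1 point for each gene, filled where the edgeR adjusted p was under 0.1, and a bar at each list's median. Among SMADs and nuclear partners the 3 filled points of NCI-H1581R lie above 0 and the 3 of NCI-H1703R below 0, and FN1 stands farthest right at 9.63.

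The genes whose pattern lay closest to a called gene were found by Pearson's r over the 8 libraries, with log2(CPM + 1) centred on each line's mean, among 11174 genes. For TGFB1 they were ZFP36L2 (r = 0.995) and SLCO4A1 (0.988), and for TGFB2 CTSZ and HOXC9 (both 0.999). For TGFBR2 they were ADAM9 (0.997) and RUNX3 (0.995), for SMAD3 TNFRSF10B and CLYBL (both 0.994), and for SMAD7 RAB3IP (0.998) and CNKSR3 (0.996). Each r rests on 4 groups of 2 libraries that every gene shares, and is a description of these libraries.

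Some markers of the cell types in question differed between the variants as well. The 5 epithelial markers EPCAM, CDH1, KRT8, KRT18 and KRT19 summed to 19.0 to 22.7 CPM in NCI-H1581 and 13.1 to 15.1 CPM in NCI-H1581R, and to 73.3 to 75.5 CPM in NCI-H1703 and 6.75 to 8.4 CPM in NCI-H1703R. In each line 1 of the 5 was called lower and 4 were not called. Over all genes, 7.44% were called lower in NCI-H1581R and 7.67% in NCI-H1703R. The replicate block called 2 of the 5 lower in NCI-H1703R, KRT8 among them (edgeR adjusted p = 0.0042). It called 34.9% of all genes there in either direction. EPCAM fell in NCI-H1581R (14.5 to 7.71 CPM on average, log2 fold change -0.90, edgeR adjusted p = 0.0568), where KRT8 stood at 0.44 (0.536), and KRT18 fell in NCI-H1703R (64.9 to 2.68 CPM, -4.56, 0.000199). The 3 fibroblast markers DCN, LUM and COL1A2 summed to 2200 to 2480 CPM in NCI-H1581 and 977 to 1010 CPM in NCI-H1581R, most of it COL1A2. All 3 were called lower in NCI-H1581R, beside 7.44% of all genes. These 3 markers summed to at most 1.9 CPM in NCI-H1703 and NCI-H1703R. The 4 leukocyte markers summed to 77.5 to 97.0 CPM in NCI-H1581 and 15.1 to 19.1 CPM in NCI-H1581R, and to 20.2 to 22.4 CPM in NCI-H1703 and 43.1 to 55.0 CPM in NCI-H1703R. Most of this was CD68, a lysosomal protein, which fell in NCI-H1581R (-2.37, 0.000902) and rose in NCI-H1703R (1.23, 0.00721). CD3E had 0 counts in all libraries, PTPRC had 0 in NCI-H1703 and NCI-H1703R, and the 3 endothelial markers summed to at most 0.449 CPM. The part of these markers in the changes of TGFB1, TGFB2, TGFBR2, SMAD3 and SMAD7 was not tested.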

How the data were processed

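The authors sequenced paired reads of 100 bp, used cutadapt and Salmon per the labels with GRCh38 as reference, and imported the transcripts into R with tximport. They deposited estimated counts by gene, whole and without normalisation (33800389 to 40031710 per library, with 15136 of 37441 genes at 0 throughout). The Salmon version, the tximport option and the strandedness are not given in the sources used here.

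From these counts, edgeR 4.0.16 in R 4.3.3 (TMM, two-sided quasi-likelihood test, Benjamini-Hochberg adjusted p under 0.1) was run on the 18203 genes with at least 10 counts in total, on the 4 libraries of each line as the labels group them, on the 4 sensitive libraries, and on all 8 for the interaction. DESeq2 1.42.0, the study's tool, was an alternative. The models were tested on simulated data. A standard error is the log2 fold change over the root of F. Symbols came from a reference of gene names matched by Ensembl identifier. GENCODE 44 gave positions and canonical transcripts, and RefSeq the promoters, with all 11 genes looked up found and the bases after each start left out. CPM used TMM factors over all 8 libraries (0.945 to 1.093), and 3 counts, a floor for counting error only, equal 0.0749 to 0.0897 CPM.

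Replicates of a variant differed beyond sampling noise (chi-square over its degrees of freedom, 24.6 to 103). Per the labels, replicate 2 repeats the whole procedure. Deviations of same-numbered replicates correlated over 11174 genes within NCI-H1581 (r = 0.215) and NCI-H1703 (0.458), and from -0.479 to 0.018 between lines, so the replicate block was an alternative. The others were RLE scaling, other filters, a threshold of 0.05, a single fit of all libraries and leaving out each replicate. Legacy quasi-dispersions, offsets for GC content and length (splines with 5 degrees of freedom) and a block within each line were added after seeing the data.

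The 9 genes, the lists and the rule were chosen with earlier results of these data known. The rule names the 9 genes, up to 3 called genes with the largest change and at least 5 CPM in a variant from each list and line, and the 2 genes most like each called gene. The SKIL promoter, COL1A1 in NCI-H1581R, ACVR2B, FN1 and LTBP3 in NCI-H1703R, SMAD2 and SMAD4 were chosen after their values were seen. Copy number arrays were not analysed here. The study reports lower copy number in NCI-H1581R than in NCI-H1581 over much of several chromosomes, 3 and 15 among them. It reports the same for a small part of chromosome 18. It also reports copy number changes within chromosomes 3 and 5 in NCI-H1703R. Whether these stretches hold TGFBR2 or SKIL (chromosome 3), TGFBI (chromosome 5), SMAD3 (chromosome 15) or SMAD7 (chromosome 18) was not tested. Some genes of the lists are not reported here by name.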

Additional observations from a re-analysis of the deposited data

Results flagged for a closer look

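For 5 of the 9 genes the change with resistance differed between the lines in edgeR's interaction test. The difference in log2 fold change, NCI-H1703 minus NCI-H1581, was 10.46 for TGFB2 (edgeR adjusted p = 0.0027), a fitted value that depends on the prior count since NCI-H1581R had 0 and 1 counts. It was 1.64 for TGFBR2 (0.015), which fell in both lines. It was 1.48 for SMAD3 (0.00245) and -3.43 for SMAD7 (0.000238), which were called in opposite directions in the lines. It was -0.61 for TGFBR1 (0.0931), which was called in neither line by itself, and this call was also lost with DESeq2 (0.104), with RLE scaling (0.144) and with no filter on low counts (0.17).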

How the results depend on the processing

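Of 497 values of the 9 genes' log2 fold changes under the alternatives, 440 kept their direction and side of the threshold, 39 lost the call, 8 gained it and 10 changed sign. None of the 10 had been called. With 1 library left out, TGFBI ranged from -5.22 to 4.99 in NCI-H1581R (4.99 without NCI-H1581 replicate 2, 0.74 without NCI-H1581R replicate 1) and from -4.14 (without NCI-H1581 replicate 2) to 6.04 in the interaction. In NCI-H1703R, TGFB2 ranged from -1.37 to 0.25 (0.25 without NCI-H1703 replicate 1, 0.19 without NCI-H1703R replicate 2), TGFB3 from -0.11 (without NCI-H1703 replicate 2) to 0.75 and TGFBR3 from -0.05 (without NCI-H1703R replicate 2) to 0.31. Between the sensitive lines TGFB1 was 0.52 with GC and length offsets and ranged from -0.18 to 0.09 with 1 library left out (0.09 without NCI-H1581 replicate 1, 0.03 without NCI-H1703 replicate 2). The cause was not tested.

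The genes called in NCI-H1581R numbered 2743, and 1793 at a threshold of 0.05 and 4539 in a single fit of all libraries. Those in NCI-H1703R numbered 2683, and 1640 at 0.05, 1730 in the single fit (679 higher, 1051 lower, against 1286 and 1397) and 6357 with the replicate block. With the GC and length offsets, 2 of the 9 genes were called in NCI-H1703R, and the interaction calls were 1521 higher and 1145 lower, against 1262 and 1541. The block changed the calls of TGFBR1 alone among the 9 genes. Leaving out 1 library, genes called ranged from 1122 to 5186 in NCI-H1581R (3 to 6 of the 9), from 274 to 1686 in NCI-H1703R (0 to 2), from 1571 to 4141 in the interaction (4 to 5) and from 9603 to 10970 between the sensitive lines (6 to 7). The lone library is then assumed to vary like the others. With 2 replicates per variant, TGFBI, TGFB2 in NCI-H1703 and TGFB3 in NCI-H1703, at most 70 counts per library, were too low for small differences to be detected. Genes with more counts can be missed too. In the simulated data, edgeR recovered 3 of 50 changes of 1.5-fold in NCI-H1581R and 1 of 50 in NCI-H1703R. Of 2-fold changes it recovered 19 of 50 and 10 of 50. The simulation took 1 mean per gene over all 8 libraries and changed only 200 genes, each with at least 50 counts on average. In the data 2743 and 2683 genes were called, so these rates need not hold for the real tests. The lack of a call for TGFBR1, TGFBR3 and TGFB3 in NCI-H1581R does not show that they were unchanged.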

Other observations

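TGFBI and ITGB6, the integrin chain that activates latent TGF-beta in epithelium, were both close to the floor in NCI-H1581 and NCI-H1581R, and were set side by side after their values were seen. ITGB6 gave 0 and 8 counts in NCI-H1581, 0 and 8 in NCI-H1581R, 0 and 5 in NCI-H1703 and 1 and 9 in NCI-H1703R. In each variant the larger ITGB6 count came from replicate 2, as did the TGFBI counts of 9 and 8 in NCI-H1581 and NCI-H1581R.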
